A study of Mus musculus with 15 samples.

Results

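The genes of the mouse proteasome were followed in lung dysplasia driven by c-raf. Members were chosen by symbol, as every gene named Psma, Psmb, Psmc, Psmd, Psme, Psmf or Psmg with a digit after it. Of the 18193 genes with a probe set of their own on the array, 49 carried such a symbol, and 103 probe sets reported them. Psmc3ip, a cofactor of meiotic recombination, and Psme3ip1, which binds a proteasome activator, share the symbol but are no part of the complex, and were left out of every count. Of the other 47 genes, 45 had a probe set with a mean signal above 100 over all arrays and were tested, among 11603 tested genes in all. They comprised 42 constitutive genes and the 3 immune catalytic subunits Psmb8, Psmb9 and Psmb10, which are described apart. In non-transgenic lung the alpha subunit Psma8, known from the testis, averaged 47.0 ± 14.9 (SD, n = 5) and Psmb11, the catalytic subunit of the thymus, averaged 10.7 ± 6.54. Both stayed below 100 on every array and were not tested. The partner of Psme1, Psme2, had a single probe set that the annotation assigns to Psme2 and Psme2b alike, so that no value is given for it.

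The proteasome degrades proteins that carry ubiquitin chains. Its core particle is a stack of alpha and beta rings with the proteolytic sites inside, and a regulatory particle of ATPases and non-ATPase subunits binds, unfolds and feeds in the substrate. In cells exposed to interferon gamma, the catalytic subunits Psmb6, Psmb7 and Psmb5 are replaced by Psmb9, Psmb10 and Psmb8, which alters the peptides offered to MHC class I and is the rule in leukocytes.

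Tissue was cut by laser microdissection from SP-C/c-raf mice on a C57BL/6 background, in which the promoter of surfactant protein C targets the c-raf kinase transgene to respiratory epithelium. Dysplasia denotes dysplastic lesions of such mice, transgenic denotes their morphologically unaltered lung, and all of these mice were 5 to 7 months old. The methods take both tissues from the same dysplasia-bearing animals, though the sex of the arrays, given below, does not match throughout. Non-transgenic lung came from littermates without the transgene, aged 7 to 10 months, so that age and transgene cannot be told apart in comparisons with this group. The labels name no treatment, and each group had 5 arrays, numbered 1 to 5.

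Arrays had a mean signal of 692 to 775 and between 44.1% and 49.9% of probe sets above 100. The ratio of the 5′ to the 3′ probe set of actin, a measure of RNA integrity, spanned 12.5% to 75.2%, with a median of 57.1% for dysplasia, 38.9% for transgenic and 31.0% for non-transgenic arrays. The signal of Xist, which is transcribed in females, was high in dysplasia 3 and 4, transgenic 3 and non-transgenic 2 to 5, hence the sexes were not balanced. It was 9674 in dysplasia 4, whereas transgenic 4 was among the low arrays (48.7 to 166). The high arrays thus differ in number between dysplasia and transgenic, which no numbering of the same mice would give. The labels of transgenic 2 conflict, since its title gives unaltered tissue and another field gives tumour. The count of members called between dysplasia and transgenic tissue is therefore also given without these 2 arrays. The alveolar type 2 markers, which define the cell that expresses SP-C, were measured above the limit for 8 of 9 genes in the list, and their summed signal was 117784 to 196772 on dysplasia, 108942 to 180485 on transgenic and 100397 to 132644 on non-transgenic arrays. Nkx2-1 was below the limit.

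First, dysplasia was compared with transgenic but unaltered tissue. A number of constitutive proteasome genes, were moderately higher in dysplasia, while 2 of the 3 immune subunits were lower. Of the 42 constitutive genes 16 were higher and 0 lower at an adjusted p under 0.05 (limma on the log2 of the signal plus 50, n = 5 each), whereas 18.6% of all tested genes were higher and 21.0% lower. The median log2 change of the constitutive genes was 0.25, against -0.01 over all tested genes, and 36 of the 42 had a positive change. In 12 genes every dysplasia array exceeded every transgenic array, against 14.7% of all genes. All rises were small, as the highest ratio of group means was 1.53, and 0 proteasome genes met a stricter limit of an adjusted p of at most 0.001 with a ratio of at least 2, which 3.97% of all genes met upwards and 6.85% downwards. Of the immune subunits Psmb9 and Psmb10 were lower, without overlap between groups (16.6% of all genes), and Psmb8 did not pass the test. In bulk tissue, fewer cells of a type and less RNA per cell cannot be told apart.

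The size of the first count depended on the arrays and on the method. Without dysplasia 4 and transgenic 2, an alternative chosen after seeing the data, 9 of the 45 members were higher (20%), with 15.6% of all genes. Leaving out transgenic 4 alone also gave 9, with 15.8% of all genes, and leaving out transgenic 5 gave 10, with 16.9%. SAM, the permutation method of the study, called 10 members higher (22.2%), with 15.9% of all genes. In these settings the members' share was thus nearer to that of all genes. With the actin ratio as a covariate 16 members were higher (35.6%), with 20% of all genes, and with Xist as a covariate 14 (31.1%), with 17.2% of all genes. Psma2, Psmb5, Psmb7, Psmd14, Psme1, Psme4 and Psmg1 were higher by SAM and in all 3 settings with arrays left out, while Psma3, Psmb1, Psmb6, Psmd6 and Psmd12 were higher in none of these 4. Psmb9 and Psmb10 were lower in every setting and every leave-out that was run.

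When dysplasia was compared with non-transgenic lung the constitutive genes were again more often higher than lower. This comparison uses the same dysplasia arrays and is therefore no independent evidence. Of the 42 constitutive genes 19 were higher and 0 lower, against 24.7% and 26.0% of all tested genes. Their median log2 change was 0.21, against -0.01 for all genes. It was 0.33 with probe sets without suffix, those whose name has no letter a, s or x as a suffix. Only 37 members, immune ones among them, had such a probe set, so that this median is over fewer genes. Of the 42 genes 15 had no overlap between groups (19.4% of all genes were higher without overlap). No proteasome gene met the stricter limit, which 6.27% of all genes met upwards and 9.08% downwards. Psmb9 and Psmb10 were again lower, without overlap (20.5% of all genes), and Psmb8 again missed the threshold. The median over the 42 genes, taken on each array on the log2 scale, lay between 11.37 and 11.60 for dysplasia, between 11.13 and 11.32 for transgenic and between 11.15 and 11.25 for non-transgenic samples, so that every dysplasia array was above all others.

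**Figure D1:**
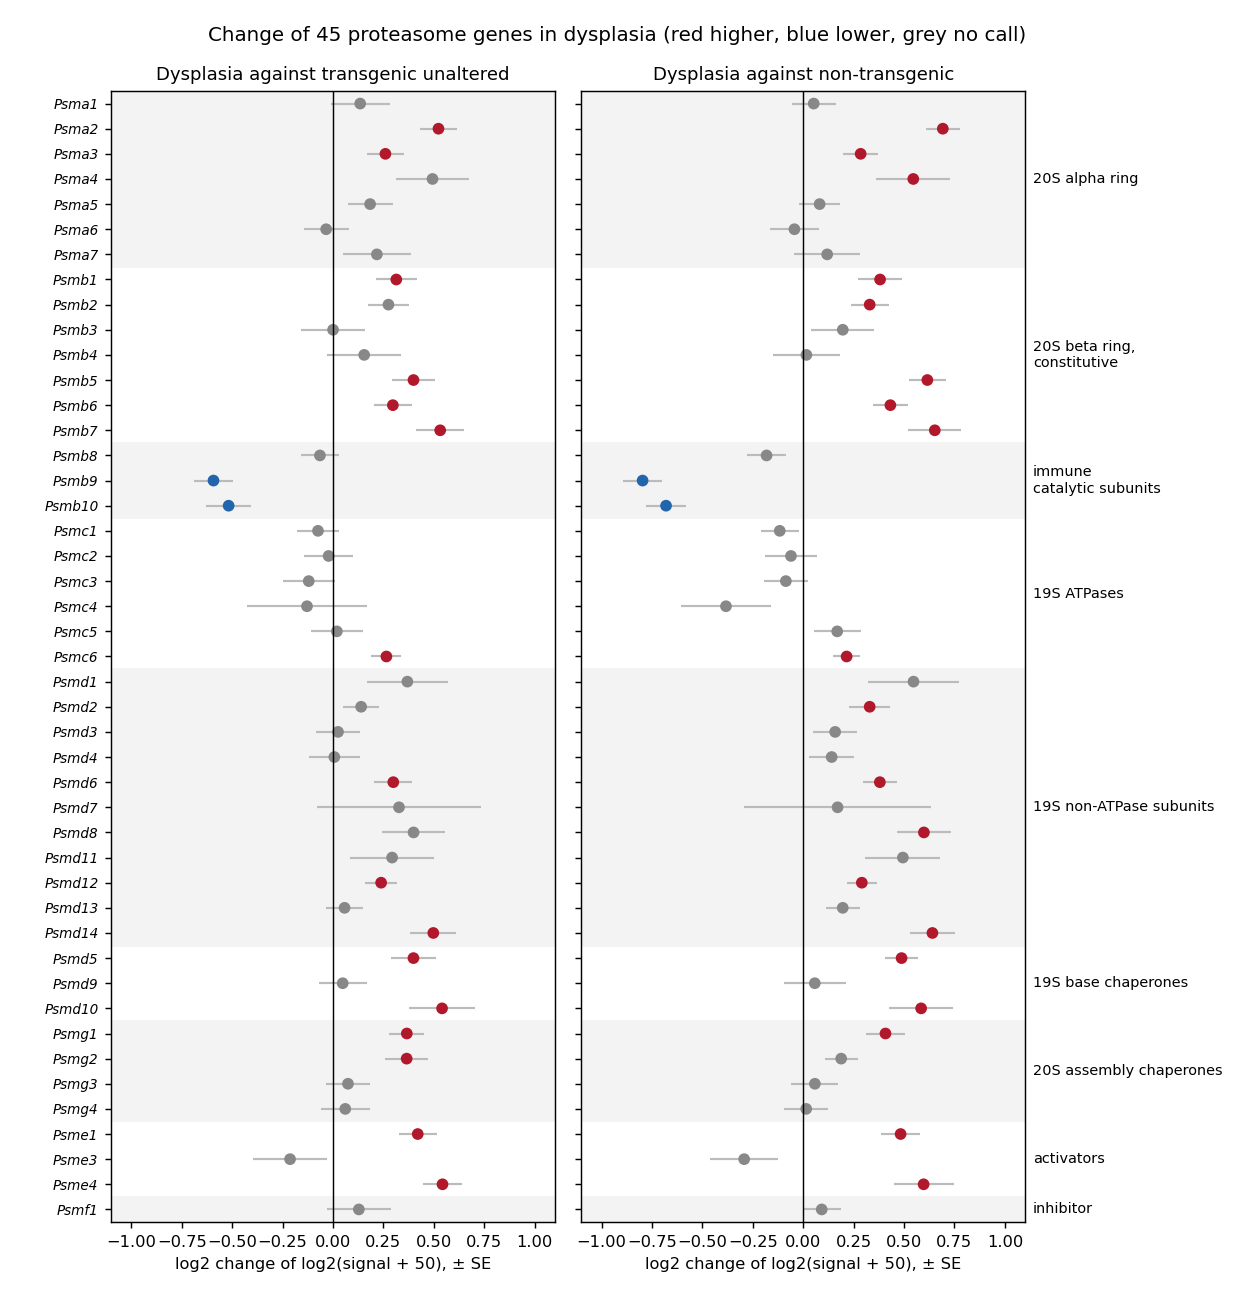
Each point is the log2 change of 1 gene (x axis, difference of mean log2 of signal plus 50) with its standard error, dysplasia against transgenic on the left and against non-transgenic on the right, with genes grouped by role. Red points were higher and blue points lower at an adjusted p under 0.05, 16 and 2 genes on the left, 19 and 2 on the right, and the only blue points are Psmb9 and Psmb10.

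The catalytic subunits of the core particle showed the contrast most directly. Psmb5 carries the chymotrypsin-like site. Its signals on arrays 1 to 5 were 3738, 3218, 4332, 3657 and 3845 on the dysplasia arrays, 2412, 2847, 3039.9, 3161 and 2724 on the transgenic and 2293, 2467, 2363, 2651 and 2364 on the non-transgenic arrays. Every dysplasia array was above every array of the other groups. The log2 change was 0.40 (SE 0.11, adjusted p = 0.0132, limma) against transgenic and 0.62 (SE 0.09, adjusted p = 0.000262) against non-transgenic tissue. Psmb7, with the trypsin-like site, had signals of 4997, 4371, 5772, 4019 and 5709.6 on the dysplasia arrays, 3536, 2970.0, 3588, 3428 and 3469 on the transgenic and 2495, 3089, 3442, 3531 and 3127 on the non-transgenic arrays. Dysplasia again did not overlap with either group. The change was 0.53 (SE 0.12, adjusted p = 0.00484, limma) and 0.65 (SE 0.13, adjusted p = 0.002). Psmb6, with the caspase-like site, gave 4449, 3687, 4680.4, 4037 and 4537 on the dysplasia arrays, 3772, 3169, 3432, 3569 and 3386 on the transgenic and 3103, 2956, 3248, 3199.7 and 3233 on the non-transgenic arrays. Here dysplasia 2 lay below transgenic 1, although dysplasia was higher in 5 of 5 pairs of the same number. The rise of 0.30 (SE 0.09, adjusted p = 0.0305, limma) against transgenic was not firm, since it missed the threshold when any of 7 single arrays was left out, with an adjusted p of up to 0.0761, and by SAM at 0.0861. Against non-transgenic it was 0.43 (SE 0.09, adjusted p = 0.00197).

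Among the immune subunits, Psmb9 had the largest change. Psmb9 takes the place of Psmb6, and its signals were 1488, 1569, 1497, 1386 and 1713 on the dysplasia arrays, 2084, 2289, 2303, 2737 and 2272 on the transgenic and 2674, 2728, 2702, 3108 and 2294 on the non-transgenic arrays. All 5 dysplasia arrays lay below all 10 others. It fell, with a log2 change of -0.59 (SE 0.10, adjusted p = 0.000659, limma) relative to transgenic and -0.80 (SE 0.10, adjusted p = 5.65e-05) relative to non-transgenic lung. Psmb10, the counterpart of Psmb7, showed 1204, 1177, 1417, 1519.7 and 1430.0 on the dysplasia arrays, 1860.5, 1672, 1927, 2342 and 1975 on the transgenic and 2083, 1991, 2249, 2419 and 2190.5 on the non-transgenic arrays. Again there was no overlap of dysplasia with the other groups. The change was -0.52 (SE 0.11, adjusted p = 0.00415, limma) and -0.68 (SE 0.10, adjusted p = 0.000185). Psmb8, the counterpart of Psmb5, was called in neither comparison. It gave 2419, 2657, 2668, 2632 and 2543 on the dysplasia arrays, 2599, 2628, 2870.4, 3172 and 2317 on the transgenic and 2976, 2854, 3106, 3380.0 and 2444 on the non-transgenic arrays, and the 3 groups overlapped. Its change of -0.06 (SE 0.10, adjusted p = 0.669, limma) and -0.18 (SE 0.10, adjusted p = 0.149) did not pass, though the latter reached -0.25 with an adjusted p of 0.0426 when non-transgenic 5 was left out. Markers of leukocytes, which express the immune subunits at a high level, moved in the same comparisons. Of 6 general leukocyte markers 5 were lower against transgenic and 2 against non-transgenic lung, where 21.0% and 26.0% of all tested genes were lower. The summed signal of these markers ran from 18011 to 23299 over dysplasia, 24716 to 30848 over transgenic and 20501 to 27706 over non-transgenic arrays. Their part in the fall of Psmb9 and Psmb10 was not tested.

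**Figure D2:**
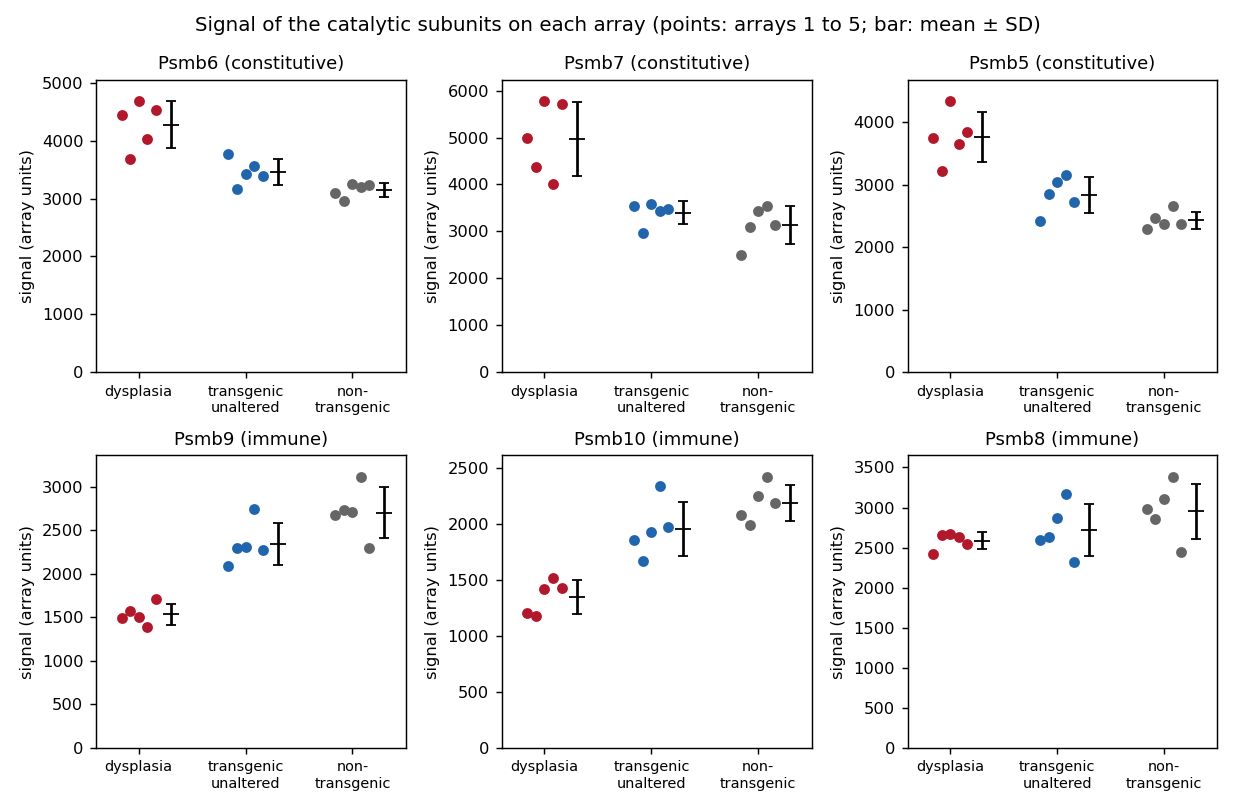
Signal in array units (y axis, from 0) of the 3 constitutive catalytic subunits (upper row) and the 3 immune ones (lower row) on each of the 5 arrays of a group, with mean and SD beside the points. Below each constitutive subunit stands the immune subunit that can replace it, and dysplasia is above both other groups for Psmb5 and Psmb7 and below them for Psmb9 and Psmb10.

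To set the exchange partners against each other, the log2 signal of the constitutive subunit was subtracted from that of its immune counterpart on each array. Only the difference between groups can be read from it, as signals of different probe sets have no common scale. The difference for Psmb9 and Psmb6 was -1.45 ± 0.16 on the dysplasia arrays, -0.56 ± 0.17 on the transgenic and -0.22 ± 0.17 on the non-transgenic ones (SD, n = 5). For Psmb10 and Psmb7 it was -1.84 ± 0.27, -0.79 ± 0.15 and -0.50 ± 0.15, and for Psmb8 and Psmb5 it was -0.53 ± 0.16, -0.06 ± 0.13 and 0.27 ± 0.14. In all 3 pairs dysplasia lay below both other groups without overlap. The shift against transgenic was -0.89 for Psmb9, -1.05 for Psmb10 and -0.46 for Psmb8, each with a two-sided exact permutation p of 0.00794, the smallest that 5 against 5 arrays allow, and 0.0119 after adjustment over the 9 tests made. Against non-transgenic tissue the shifts were -1.23, -1.33 and -0.80 with the same exact p. For Psmb10 and Psmb7 in both comparisons, and for Psmb9 and Psmb6 against non-transgenic tissue, both genes had already moved oppositely without overlap. Their difference could then not overlap, so that this p was fixed beforehand and adds no evidence there. In the pair of Psmb8 and Psmb5, Psmb8 itself changed by -0.06 against transgenic and -0.18 against non-transgenic tissue, without a call. Psmb5 changed by 0.40 and 0.62, so that most of this shift was the rise of Psmb5. Transgenic and non-transgenic arrays overlapped in each pair. Their shifts were nevertheless -0.34 for Psmb9, -0.28 for Psmb10 and -0.33 for Psmb8, with adjusted exact permutation p of 0.0238, 0.0238 and 0.0204.

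**Figure D3:**
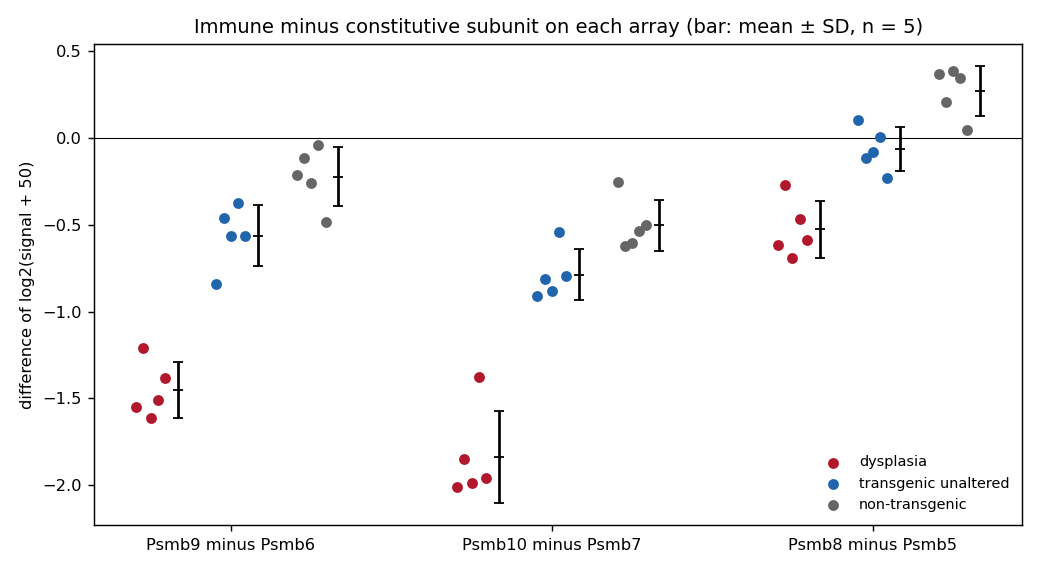
Difference of log2 (signal plus 50) between an immune subunit and the constitutive subunit it can replace (y axis) on each array, by group, with mean and SD of 5 arrays. In all 3 pairs the dysplasia arrays are lowest, with a mean of -1.45, -1.84 and -0.53, and the non-transgenic mean is highest.

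Promoter sequences are shown for 4 catalytic subunits, constitutive and immune, and for Psmc6 and Psmd12, regulatory subunits that rose, to show where the motifs searched for lie. They are from RefSeq (GRCm38.p6), read 5′ to 3′ on the strand of the gene. The first 4 are the 150 bases before the start of the gene and the last 2 are stretches of 50 bases that begin 250 bases before it. Psmb5 is at chr14:54617996-54618145 on the minus strand, Psmb6 at chr11:70525207-70525356 on the plus strand, Psmb8 at chr17:34198045-34198194 on the plus strand, Psmb9 at chr17:34187331-34187480 on the minus strand, Psmc6 at chr14:45329574-45329623 and Psmd12 at chr11:107479278-107479327, both on the plus strand. Capitals mark the core of the antioxidant element TGACNNNGC in Psmb5, Psmb6, Psmc6 and Psmd12 (in the last 2 on the opposite strand), the gamma-activated site TTCNNNGAA in Psmb8 and the CCAAT box in Psmb9, also on the opposite strand.
Psmb5: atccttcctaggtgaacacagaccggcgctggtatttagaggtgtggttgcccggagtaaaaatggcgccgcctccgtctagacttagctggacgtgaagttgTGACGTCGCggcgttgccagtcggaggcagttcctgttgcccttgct
Psmb6: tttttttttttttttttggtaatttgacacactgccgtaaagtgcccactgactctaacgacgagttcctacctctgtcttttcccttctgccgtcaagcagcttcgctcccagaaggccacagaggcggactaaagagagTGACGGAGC
Psmb8: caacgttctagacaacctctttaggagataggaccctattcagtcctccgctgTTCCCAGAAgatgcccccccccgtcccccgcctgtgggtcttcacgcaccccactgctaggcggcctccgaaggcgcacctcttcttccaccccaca
Psmb9: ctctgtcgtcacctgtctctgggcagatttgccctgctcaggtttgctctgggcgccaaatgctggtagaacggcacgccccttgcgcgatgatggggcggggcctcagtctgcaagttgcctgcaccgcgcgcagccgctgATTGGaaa
Psmc6: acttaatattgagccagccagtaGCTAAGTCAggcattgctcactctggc
Psmd12: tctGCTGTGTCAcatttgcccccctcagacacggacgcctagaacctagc
Windows from 250 bases before to 50 bases after the start were on hand for 39 of the 47 genes and were searched on both strands. The antioxidant core, the element bound by the factors Nrf1 and Nrf2, was in 12.4% of all 32851 windows. Of the constitutive genes higher in dysplasia against transgenic tissue 5 of 13 windows held it (38.5%), namely Psmb5, Psmb6, Psmc6, Psmd12 and Psme4, and of those not called 1 of 24 (4.17%), which was Psmd9. Of these 5 genes, Psmb6 and Psmd12 were not called by SAM, without dysplasia 4 and transgenic 2, or without transgenic 4 or 5. Psmc6 was not called by SAM or without dysplasia 4 and transgenic 2. A match describes letters and is not a binding site, and the counts are small and were not tested. The motifs were chosen with results of these data known, and the stretches shown were chosen after the search. The CCAAT box was in 37.4% of all windows and in 32.4% of those of the constitutive genes tested. The gamma-activated site was in 8.30% of all windows and 5.41% of the constitutive ones, and of the 3 immune subunits Psmb8 held it. The interferon response element was in 3.44% of all windows and 13.5% of the constitutive ones, in 1 of 13 windows of the genes called higher (7.69%, Psme1), in 4 of 24 of those not called (16.7%) and in 0 of the 3 immune windows. Psmb9 starts 226 bases from Tap1, which is transcribed the other way, and 275 of the 300 bases of their windows are shared.

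In the alpha ring, which gates the core particle, 2 of 7 genes were higher against transgenic and 3 of 7 against non-transgenic tissue, where 18.6% and 24.7% of all tested genes were higher. Psma2 was the clearest. Its signals were 7759.9, 6251, 6831, 6228 and 7163 on the dysplasia arrays, 5151, 4913, 4488, 4655 and 4488 on the transgenic and 4037, 4218, 4074, 4336 and 4363 on the non-transgenic arrays. None of the 3 groups overlapped with another. Dysplasia exceeded transgenic by 0.52 (SE 0.09, adjusted p = 0.00109, limma) and non-transgenic by 0.69 (SE 0.09, adjusted p = 6.15e-05) on the log2 scale. Psma3 rose by 0.26 and 0.28. Psma4 was higher against non-transgenic tissue (0.55, adjusted p = 0.0327, limma) and just missed against transgenic (0.49, adjusted p = 0.0543). Psma1, Psma5, Psma6 and Psma7 were not called by their brightest probe sets, with log2 changes from -0.03 to 0.22 against transgenic. A second probe set of Psma5, with a mean signal of 1580, was higher by 0.29 (adjusted p = 0.0478, limma) and 0.42 (adjusted p = 0.0053). In the beta ring, where Psmb1, Psmb2, Psmb3 and Psmb4 have no catalytic site, Psmb1 rose by 0.31 and 0.38. Psmb2 rose by 0.33 against non-transgenic tissue. Against transgenic it changed by 0.28 without overlap between groups, at an adjusted p of 0.0565 (limma) and of 0.0198 with the array number as a block. Psmb3 and Psmb4 were not called by their brightest probe sets. Another probe set of Psmb3, with a mean signal of 1877, rose by 0.48 against non-transgenic tissue (adjusted p = 0.027, limma).

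The regulatory particle has 6 ATPases, the ring that unfolds the substrate, of which Psmc6 alone was called higher (18.6% of all genes against transgenic and 24.7% against non-transgenic tissue), by 0.26 against transgenic and 0.22 against non-transgenic tissue, and the median of the 6 was -0.05 and -0.07. Psmc1, Psmc2, Psmc3, Psmc4 and Psmc5 had changes between -0.13 and 0.02 against transgenic, none of which passed. The log2 changes against non-transgenic lung were -0.12, -0.06, -0.09, -0.38 and 0.17, again without a call. Of the 11 non-ATPase subunits all had a positive change in both comparisons, with medians of 0.29 and 0.33, and 3 and 5 of the 11 were called higher. Whether the roles differ was not tested. Psmd14 is the enzyme that cuts ubiquitin chains off the substrate. Its signals were 5897, 4070.0, 5118, 4966 and 5136 on the dysplasia arrays, 4237, 3254, 3440.0, 3345 and 3450.3 on the transgenic and 2797, 2994, 3321, 3309 and 3596 on the non-transgenic arrays. Apart from transgenic 1, which was above dysplasia 2, dysplasia was higher throughout. The change was 0.50 (SE 0.11, adjusted p = 0.00597, limma) and 0.64 (SE 0.11, adjusted p = 0.000727). Psmd6 and Psmd12, structural subunits of the lid, rose by 0.30 and 0.24 against transgenic, where neither call held by SAM or without the arrays named above, and by 0.38 and 0.29 against non-transgenic lung.

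Psmd8, another lid subunit, had 3344, 2629.6, 3010.0, 2339.8 and 2380.1 on the dysplasia arrays, 2422, 2159, 2312, 2093 and 1414 on the transgenic and 1785, 1854, 2121, 1784 and 1409 on the non-transgenic arrays. Dysplasia was above non-transgenic without overlap, but overlapped with transgenic. It was called against non-transgenic (0.60, SE 0.13, adjusted p = 0.00348, limma) and not against transgenic (0.40, SE 0.16, adjusted p = 0.074). With the array number as a block it passed there too, at an adjusted p of 0.00757, as did Psma4, Psmb2, Psmd1 and Psmd7, so that 21 members were higher in the blocked fit, in which 25.9% of all genes were higher. Psmd2, the large scaffold of the base, rose by 0.33 against non-transgenic tissue. By their brightest probe sets Psmd1, Psmd3, Psmd4, Psmd7, Psmd11 and Psmd13 passed in neither unblocked comparison. Against non-transgenic tissue another probe set of Psmd11, with a mean signal of 4351, was higher (0.37, adjusted p = 0.0221, limma). A dim one of Psmd7, with a mean signal of 138, was lower there (-0.43, adjusted p = 0.0162, limma). The brightest probe set of Psmd7, the partner of Psmd14, varied widely among arrays. Its signals ran from 248 to 1023 in dysplasia and from 149 to 1080 in non-transgenic lung.

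Of the proteins that help to assemble the complex, several rose. Psmd10, also called gankyrin, is a chaperone of the base. Its signals were 713, 845, 598, 549.9 and 446 on the dysplasia arrays, 427, 501, 434, 383 and 316 on the transgenic and 429, 477, 342, 407 and 333 on the non-transgenic arrays. It was the dimmest member tested, and dysplasia 5 lay within the range of the other groups. The change was 0.54 (SE 0.16, adjusted p = 0.0253, limma) and 0.58 (SE 0.16, adjusted p = 0.0116). The base chaperone Psmd5 rose by 0.40 and 0.49, and Psmd9, the last of the 3, was not called (0.05 and 0.06). Psmg1 and Psmg2 form the pair that starts the alpha ring. Psmg1 rose by 0.37 and 0.41, and Psmg2 by 0.37 against transgenic (adjusted p = 0.0221, limma), with 0.19 against non-transgenic tissue (adjusted p = 0.0875). Psmg3 and Psmg4 were not called.

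Activators open the core particle without the regulatory particle. Psme1, which is itself inducible by interferon gamma, had signals of 7724, 7314, 8206, 7359 and 8381 on the dysplasia arrays, 5328, 5621, 6270.0, 6599 and 5317 on the transgenic and 5122, 5119.8, 5636, 6672 and 5370.3 on the non-transgenic arrays. All dysplasia arrays were above all others. It rose by 0.42 (SE 0.09, adjusted p = 0.00482, limma) and 0.48 (SE 0.10, adjusted p = 0.00168), opposite in sign to Psmb9 and Psmb10. Psme4, a nuclear activator known for the turnover of acetylated histones, gave 2676, 2886, 3190.2, 3446 and 3179.9 on the dysplasia arrays, 1881, 2012, 2244, 2119 and 2199 on the transgenic and 1576, 1762, 1845, 2279 and 2794 on the non-transgenic arrays. Dysplasia was above transgenic throughout, while non-transgenic 5 was above dysplasia 1. The change was 0.54 (SE 0.10, adjusted p = 0.00108, limma) and 0.60 (SE 0.15, adjusted p = 0.00715). A second bright probe set of Psme4 gave 0.62 and 0.75, and a dim one with a mean signal of 223 gave 0.58 and 0.45 but did not pass (adjusted p = 0.284 and 0.299, limma).

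Psme3, the nuclear activator that needs no ubiquitin, had 318, 471, 549, 353 and 461 on the dysplasia arrays, 338, 502, 562, 468 and 679 on the transgenic and 585, 479.9, 457, 435 and 738 on the non-transgenic arrays. The groups overlapped and the change of -0.21 and -0.29 did not pass (adjusted p = 0.422 and 0.19, limma). The inhibitor Psmf1 had 535, 756, 619, 584 and 589 on the dysplasia arrays, 364, 721, 593, 541 and 627 on the transgenic and 549, 572, 557, 599 and 584 on the non-transgenic arrays. Its groups overlapped too, and the change was 0.13 and 0.09 (adjusted p = 0.599 and 0.475, limma).

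Probe sets of 1 gene did not always give the same call. Of 20 members with several tested probe sets, the call differed among them in 8 genes against transgenic and in 12 against non-transgenic tissue. The brightest probe sets of Psma6, Psmb4 and Psmc2 are of a type that may also bind other transcripts. For Psmb4 the brightest gave 0.15 and 0.02. A probe set without suffix, with a mean signal of 4788, rose by 0.27 (adjusted p = 0.0424, limma) and 0.34 (adjusted p = 0.00472). Psmc4 had -0.38 by its brightest and 0.39 by its other probe set against non-transgenic lung, and the second was called (adjusted p = 0.00399, limma). Opposite calls occurred for Psmb1 against non-transgenic tissue, where a dim probe set with a mean signal of 123 was lower (-0.37, adjusted p = 0.018, limma). With probe sets without suffix alone, 37 members could be read. Of these 10 (27%) were higher against transgenic and 17 (45.9%) against non-transgenic tissue. Over all 9906 genes read in this way it was 18.4% and 24.1%.

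Transgenic but unaltered tissue was also compared with non-transgenic lung. Transgene, age and the balance of the sexes differ together here and cannot be told apart. No proteasome gene passed, 0 of 45 in either direction by limma and by SAM, and 1.59% and 0.121% of all tested genes were higher and lower. At an unadjusted p under 0.05 there were 2 higher, Psma2 (0.17) and Psmb5 (0.22), and 0 lower, against 9.55% and 5.16% of all genes. The median log2 change was 0.05 for the constitutive and -0.16 for the immune subunits. Psma2 was the only gene whose arrays did not overlap (4.42% of all genes were higher and 1.34% lower in this way).

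Genes that work with the proteasome were read from lists of each function. Of 6 associated proteins, Pomp, which drives the maturation of the core particle, was higher against non-transgenic tissue (0.25, adjusted p = 0.0349, limma), with 0.18 (adjusted p = 0.141) against transgenic. Akirin2, which carries proteasomes into the nucleus, was lower in both, with -0.27 and -0.34. Of 9 genes of substrate shuttling and unfolding, Faf1 was higher (0.49) and Ubqln2 lower (-0.44) against transgenic tissue. Against non-transgenic lung Faf1 (0.63), Faf2 (0.51) and the unfolding ATPase Vcp (0.55) were higher and Ufd1 (-0.32) was lower. Of all tested genes 18.6% were higher and 21.0% lower against transgenic, and 24.7% and 26.0% against non-transgenic tissue. Shuttling genes had 11.1% each way against transgenic, and 33.3% higher and 11.1% lower against non-transgenic. For the associated proteins it was 0% and 16.7% against transgenic, and 16.7% each way against non-transgenic. Only the 33.3% was above the share of all genes. Nfe2l1, the transcription factor that induces proteasome genes, and Ngly1, which activates it, were not called in either comparison. Uba6, an enzyme that activates ubiquitin, rose by 0.51 and 0.61.

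The immune subunits serve antigen presentation, and in the lists of that pathway more genes were lower than higher. Of 11 genes of class I loading 4 were lower and 0 higher against transgenic tissue and 5 lower and 0 higher against non-transgenic, where 21.0% and 26.0% of all genes were lower. The peptide transporter Tap2 fell from 1087 ± 141 in transgenic to 735 ± 41.4 in dysplasia (log2 change -0.53, adjusted p = 0.00182, limma). Nlrc5, the activator of class I genes, fell from 755 ± 175 to 427 ± 91.1 (-0.75, adjusted p = 0.0059, limma). The class I heavy chains H2-K1 and H2-D1 were not called, with 0.06 and -0.09. Tap1, the neighbour of Psmb9, changed by -0.26 (adjusted p = 0.143, limma) against transgenic and -0.43 (adjusted p = 0.0348) against non-transgenic tissue. Of 15 interferon response genes 10 were lower and 0 higher against transgenic, and 11 lower and 1 higher, Cxcl9, against non-transgenic lung. Irf1, a factor that switches on immune subunits, changed by -0.68 and -0.77, and Gbp3 by -1.27 and -1.80.

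**Figure D4:**
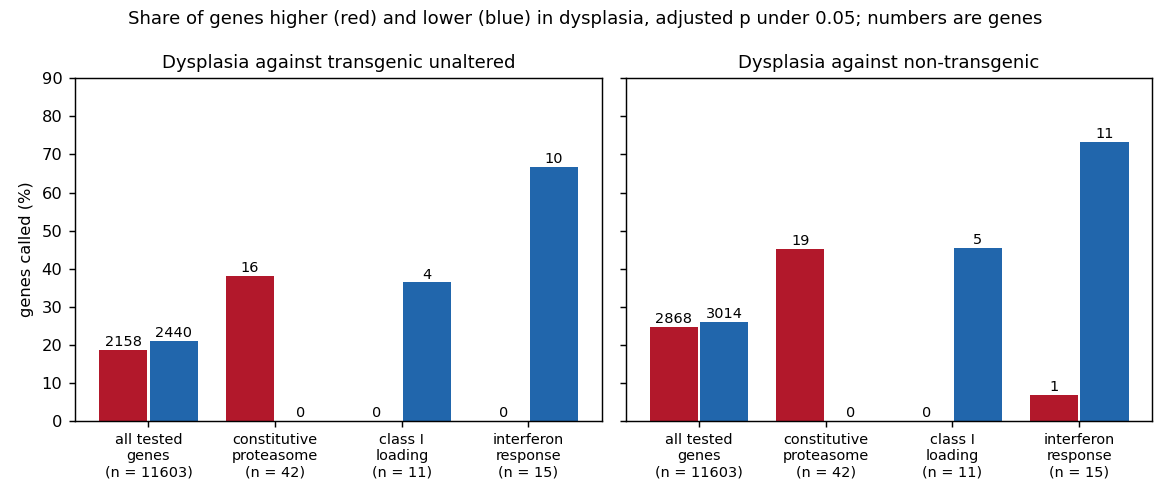
Percentage of genes (y axis, from 0) called higher (red) or lower (blue) in dysplasia at an adjusted p under 0.05, for all tested genes and 3 gene lists, with the number of genes above each bar. Constitutive proteasome genes were called in 1 direction alone, 16 and 19 of 42, while 4 and 5 of 11 class I loading genes and 10 and 11 of 15 interferon genes were lower.

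Markers of other cells were read in the same comparisons. Against transgenic 21.0% of all tested genes were lower and 18.6% higher, and against non-transgenic 26.0% and 24.7%. All 12 endothelial markers were lower in both comparisons, and their sum ran from 22213 to 32165 over dysplasia, from 60898 to 86814 over transgenic and from 69791 to 90777 over non-transgenic arrays. NK cell markers were lower in 4 of 5 genes against transgenic and in 5 of 5 against non-transgenic tissue, with sums of 873 to 1552, 2029 to 3147 and 2692 to 4282 in the same order. Of 12 macrophage markers 7 were lower and 3, namely C1qa, C1qb and C1qc, higher against transgenic, whereas 2 were lower and 4 higher against non-transgenic. Neutrophil markers were lower in 3 of 3 genes in both comparisons. Among these lists the NK genes Ncr1 and Prf1 and the neutrophil gene Cxcr2 lay below the signal limit, and the general leukocyte, macrophage and endothelial lists had no gene below it. Dendritic cell markers were lower in 2 of 4 genes in both comparisons, and T cell markers in 1 of 6 against transgenic and 2 of 6 against non-transgenic. B cell markers were lower in 4 and 5 of 6, with Jchain higher against transgenic. The B cell sum did not follow these counts. It ran from 6034 to 15034.5 over dysplasia, 5660 to 10750 over transgenic and 8338 to 13530 over non-transgenic arrays. Of 9 fibroblast markers 3 and 4 were lower, and of 7 alveolar type 1 markers 4 were lower and 1, Aqp5, higher in both. Of the club cell markers 3 of 4 were higher against transgenic and 0 of 4 against non-transgenic tissue. Of the alveolar type 2 markers 1 of 8 was higher against transgenic, Etv5, and 3 of 8 against non-transgenic lung. Against transgenic the alveolar type 2 share called higher (12.5%) and the T cell share called lower (16.7%) were below those of all genes. The part of these cells in the changes of proteasome genes was not tested.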

How the data were processed

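Signals were measured on Affymetrix Mouse Genome 430 2.0 arrays, on which a gene is read by 1 or more probe sets. The deposited values are intensity on a linear scale, made by the authors with GCOS and scaled so that the trimmed mean of each array was 500. Of 45101 probe sets 64 controls were left out, and of the others 34945 were annotated to 1 symbol, 932 to several and 9160 to none. Probe sets with a mean above 100 over the 15 arrays were tested (21658), on log2 of signal plus 50, in limma 3.58.1 (R 4.3.3) with lmFit and eBayes. Each comparison was fitted on its own 10 arrays without pairing, and p-values were adjusted over all tested probe sets by Benjamini-Hochberg with a threshold of 0.05. The brightest probe set stood for its gene, and background shares are over the 11603 genes so represented. Exact permutation tests and promoter searches were done in Python 3.11.15 with scipy 1.17.1. The number of arrays limits the precision.

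Array numbers were checked as pairs. Where dysplasia and transgenic arrays share a number, their deviations from the group means correlated at 0.219 or more (mean 0.612, other numbers -0.15). The methods take both tissues from the same mice but do not tie the numbers to mice, and the Xist signals do not match the same mice in both groups. Transgenic and non-transgenic arrays, which are different mice, also correlated by number (mean 0.452, lowest 0.135). So did dysplasia and non-transgenic arrays on average (mean 0.405, other numbers -0.0995), though not throughout (lowest -0.0037).

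Values on every array are given for catalytic and immune subunits, activators, the inhibitor and the 5 called constitutive genes with the largest rise in each comparison. Up to 3 genes with the smallest p were to be named per list, and other genes named from the lists were chosen after their values were seen. Members and lists were chosen with earlier results of these data known. Alternatives were SAM with 100 permutations, a replicate block, other offsets and signal limits, other normalizations, other probe sets, covariates for Xist and the actin ratio, and leaving out single arrays. The fit was tested on simulated data before use.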

Additional observations from a re-analysis of the deposited data

Results flagged for a closer look

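Among 14 members with values given on every array, 42 groups of 5 arrays were checked for an array that stands apart, and 2 did. The signal of Psmb7 in transgenic 2 was 2970.0, below the other transgenic arrays at 3428 to 3588. The signal of Psmd14 in transgenic 1 was 4237, above the others at 3254 to 3450. Chance alone marks about 1 in 20 groups in this way.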

How the results depend on the processing

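The number of members higher in dysplasia against transgenic tissue, 16, was the least stable result. It was 10 by SAM, 10 with probe sets without suffix (37 genes), and 9 without dysplasia 4 and transgenic 2, an alternative chosen after seeing the data. Leaving out 1 array gave 9 to 15, the lowest without transgenic 4, and 10 without transgenic 5. With the replicate block it was 21, including all 16. Against non-transgenic tissue the block gave 20 higher, losing Psmc6 and gaining Psmd1 and Psmd11, and between transgenic and non-transgenic it gave 0. The median change of the constitutive genes against non-transgenic, 0.21, was 0.33 with probe sets without suffix, over the fewer genes that have such a probe set. Psmb6 against transgenic missed the threshold by SAM (adjusted p = 0.0861) and without the 2 arrays (adjusted p = 0.084, limma). Psme4 missed it by its most variable probe set, at 0.58 and 0.45. Psmf1 passed against non-transgenic with a probe set without suffix (0.26, adjusted p = 0.0333, limma). No median, pair difference or called change of a catalytic, immune or activator gene changed sign. Some changes without a call did. With 1 array left out, Psmf1 against transgenic ran from -0.01 to 0.21. Between transgenic and non-transgenic tissue Psme3 then ran from -0.18 to 0.04, Psme4 from -0.03 to 0.17 and Psmf1 from -0.12 to 0.10. Against non-transgenic tissue Psme3 was -0.29 by its brightest probe set and 0.07 by another. Psmb1 was called in opposite directions by 2 probe sets there, and Psmc4 was -0.38 by 1 and 0.39 by another. The 2 falls and the pair differences kept their call in all that were run. Where pair differences of dysplasia did not overlap with the other group, leaving out 1 array could not make them overlap. Their calls in those leave-outs were thus fixed beforehand and add no evidence. The cause of these shifts was not tested. With 5 arrays a group, small changes may be missed.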
